A study of Danio rerio with 19 samples.

Results

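Hox genes encode homeodomain transcription factors that stand in clusters along the chromosome and give cells a position along the head-to-tail axis. Members are numbered by paralogue group. Low-numbered genes are used from the hindbrain and the second pharyngeal arch backwards, and high-numbered genes in the trunk, the tail and the fins. In the pharyngeal arches, the embryonic segments that form the jaw and gill skeleton, the neural crest of the first arch lacks Hox expression, and hoxa2b and hoxb2a give the second arch its identity in zebrafish.

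All genes of the deposited table named as a member of HoxA, HoxB, HoxC or HoxD were taken, which gave 50 of 31953 genes. They carried 48 distinct names, because hoxa9a and hoxc10a each stand in the table under a pair of identifiers, and they fell into 7 clusters. Groups 1 to 5 held 17 members, called anterior here, and groups 6 to 13 held 33, called posterior. In RefSeq's annotation of the assembly GRCz12tu, which is not the authors' build and was used for names and neighbours alone, 17 of the names share 12 overlaps with another Hox gene. These are hoxa3a with hoxa5a, hoxb1b with hoxb5b and hoxb6b, hoxb3a with hoxb4a, hoxb5a and hoxb6a, hoxc3a with hoxc4a, hoxc5a, hoxc6a, hoxc8a and hoxc9a, and hoxd3a with hoxd4a. The sources used here do not say how reads were split between overlapping genes, and the levels of these genes are therefore uncertain.

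The 19 libraries were made from zebrafish cells sorted by fluorescence, and expression is given as TPM, transcripts per 1000000, a share of the library corrected for gene length. Wild-type cells with both fli1a:GFP and sox10:DsRed, which take in the whole arch crest at 36 hours after fertilization (hpf), made up 3 libraries, called all-arch. The single-positive wild-type controls were fli1a:GFP+;sox10:DsRed- cells at 36 hpf (3 libraries, fli1a-only, labelled as mixed with vasculature) and fli1a:GFP-;sox10:DsRed+ cells (3 libraries, sox10-only, labelled as mixed with ear). The labels give 20, 28 and 36 hpf for sox10-only replicates 1, 2 and 3, although the series design describes these cells as isolated alongside the arch cells. Wild-type cells sorted at 36 hpf by hand2 and sox10 reporters gave 2 libraries, and cells sorted by dlx5a and sox10 reporters gave 1. The titles of these 3 libraries do not name fli1a. The other libraries held fli1a- and sox10-positive arch cells at 36 hpf. They were 2 from genotyped edn1-/- embryos, which lack the ligand Endothelin 1, and 1 each from genotyped jag1b-/- and jag1b+/+ embryos, where jag1b encodes a Notch ligand. A further 3, 1 for each genotype, came from heat-shocked embryos that all carried hspGal4, alone, with UASEdn1 or with UASNICD, the Notch intracellular domain. The labels do not say that the libraries of a group were separate clutches, and the p-values then measure only a spread between libraries that may be technical.

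The sort labels were read against marker genes. The summed TPM of 12 arch crest markers lay between 4766 and 7938 in all-arch libraries, and 8 of the 12 were called higher there than in both single-positive populations. The vessel list summed to between 295 and 1367 TPM in fli1a-only libraries, against at most 31.3 in all-arch libraries, and globin genes took 31.3%, 61.5% and 22.7% of the fli1a-only libraries. The ear list summed to 445, 89.0 and 400.3 TPM in sox10-only replicates 1 to 3, and the pigment list to between 10119 and 30613 TPM. TPM keeps no sequencing depth, so the depth of each library is unknown.

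Anterior and posterior Hox genes were spread very differently over the sorted populations. In all-arch libraries the anterior members summed to 464, 557 and 699.7 TPM, and the posterior members to 22.5, 55.1 and 45.2 TPM. Anterior genes thus held 95.4%, 91.0% and 93.9% of the Hox TPM. In fli1a-only libraries the anterior sum was 128, 93.2 and 163 TPM and the posterior sum 382, 101 and 437 TPM, and in sox10-only libraries these sums were 340.1, 436 and 486 TPM and 1195, 1099 and 1831 TPM. The posterior sums of the 3 populations did not overlap with one another. Because these are bulk libraries, fewer cells of a type and less RNA per cell cannot be told apart in any of these values.

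**Figure D1:**
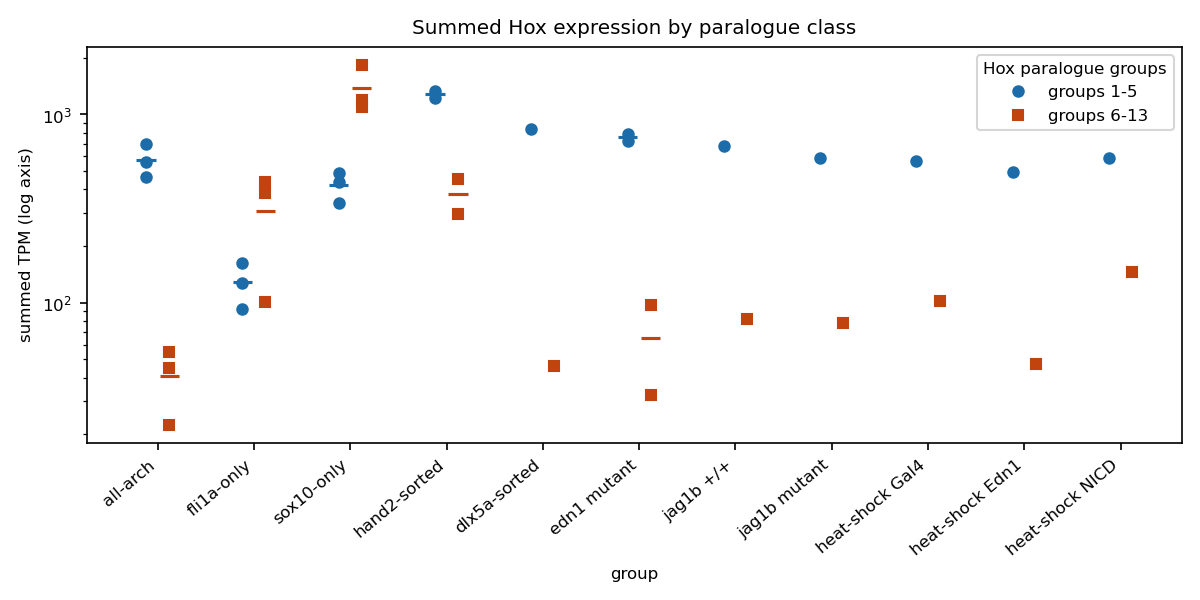
Summed TPM (log axis) of Hox groups 1 to 5 (blue circles) and 6 to 13 (orange squares) in each library, by group, with a bar at the mean of groups with more than 1 library. In every group of fli1a- and sox10-positive arch cells the blue points lie above the orange ones. In each fli1a-only and sox10-only library the order is turned, narrowly so in fli1a-only replicate 2.

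Within the arch, a handful of genes carried the signal. Of the 17 anterior members, 7 reached 10 TPM in every one of the 10 libraries sorted with both fli1a and sox10, and 12 did so in at least 1 of them. Of the 33 posterior members, 0 reached 10 TPM in every such library and 3 did in any. Paralogue group 2 alone, which in zebrafish is hoxa2b and hoxb2a, held 57.0%, 65.7% and 45.5% of the anterior TPM in all-arch libraries and between 12.7% and 19.7% in sox10-only libraries. In fli1a-only libraries it held 42.5%, 34.8% and 29.6%, and in the arch library with heat-shock Gal4 alone 41.5%. Over all 19 libraries, 29 members had their highest value in a sox10-only library, and 25 of these were posterior. A further 10 members were highest in a hand2-sorted library and 5, all posterior, in a fli1a-only library. The share of all genes highest in each population was not counted, so these counts have no background. One row, the hoxa9a entry ENSDARG00000100358, stayed under 1 TPM in every library. It is counted among those highest in a hand2-sorted library, at 0.114 TPM. Of the 50 rows, 43 reached 10 TPM in some library.

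**Figure D2:**
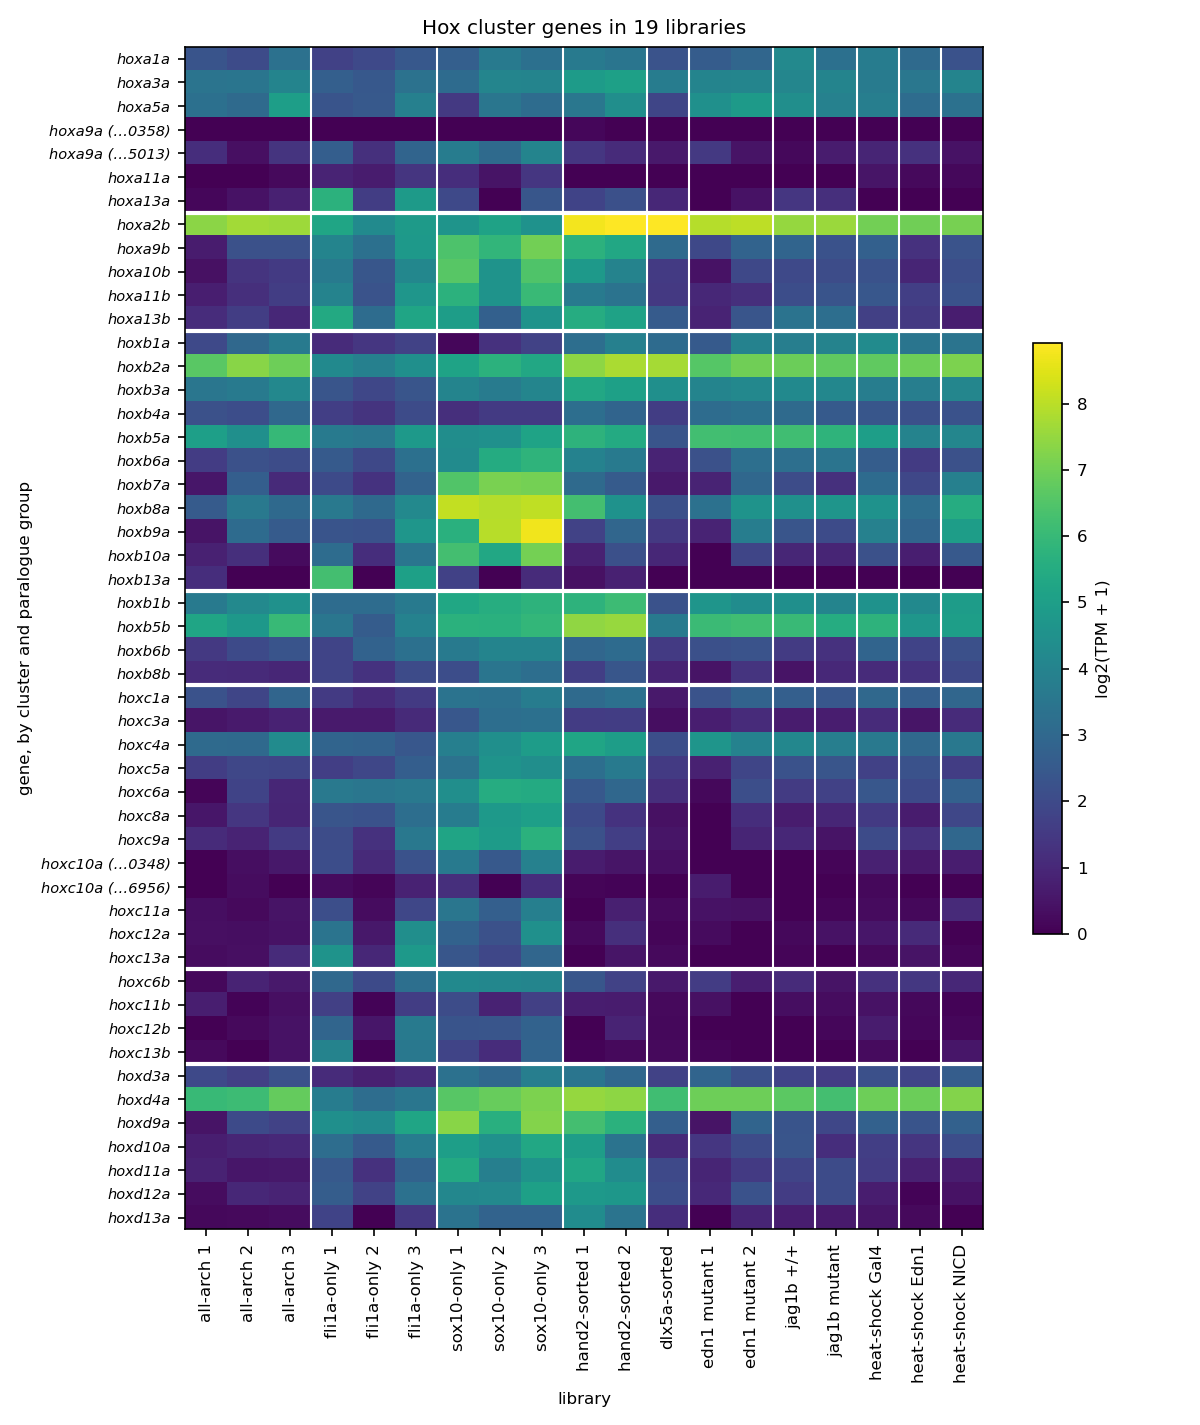
Level of all 50 Hox rows (log2 of TPM + 1, colour) in the 19 libraries, with genes ordered by cluster and paralogue group and white lines between clusters and groups. The bright rows shared by arch libraries are hoxa2b, hoxb2a, hoxd4a, hoxb5a and hoxb5b, and the posterior rows brighten in the sox10-only columns.

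The comparison of all-arch with fli1a-only cells asks which Hox genes set the double-positive crest apart from other fli1a-positive cells. Of the 17 anterior members, 5 were called higher in all-arch cells (limma, adjusted p under 0.05 over all genes tested) and 0 lower. They were the second-arch genes hoxa2b and hoxb2a, the hindbrain gene hoxb3a, hoxd4a of the posterior hindbrain, and hoxb5b. Of the 33 posterior members, 0 were called higher and 10 lower. For background, 4.16% of the 14270 genes tested were called higher and 2.89% lower. A total of 47 members passed the filter of a mean of 1 TPM, of which 16 had a mean under 1 TPM in one of these groups.

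The gene hoxa2b stood at 166, 204 and 195 TPM in all-arch cells and at 36.5, 18.5 and 27.7 TPM in fli1a-only cells. The groups did not overlap, and the difference was 2.77 ± 0.35 on the log2(TPM + 1) scale (SE, n = 3 and 3, adjusted p = 0.000486). Its partner hoxb2a stood at 99.1, 161 and 123 TPM against 17.9, 13.9 and 20.7 TPM, a difference of 2.79 ± 0.34 (adjusted p = 0.000351). The gene hoxd4a stood at 62.8, 68.9 and 111 TPM against 12.5, 8.21 and 10.4 TPM, a difference of 2.82 ± 0.35 (adjusted p = 0.00042). All 3 genes were higher in each all-arch library than in any fli1a-only library, and their calls held in all 13 alternatives run. Differences were smaller for hoxb5b, at 37.1, 26.1 and 63.0 TPM against 10.4, 5.10 and 14.6 TPM (1.97 ± 0.42, adjusted p = 0.0163), and for hoxb3a, at 10.3, 11.5 and 16.9 TPM against 4.07, 2.73 and 4.05 TPM (1.58 ± 0.33, adjusted p = 0.0145). Without all-arch replicate 3 neither was called (1.64, adjusted p = 0.0982, and 1.38, adjusted p = 0.115), and without all-arch replicate 2 hoxb3a gave 1.64 (adjusted p = 0.052). Over all genes tested the median difference was 0.68, so hoxa2b, hoxb2a and hoxd4a rose about 2.09, 2.11 and 2.14 beyond it. The median over all 17 anterior members was 0.96 and over all 33 posterior members -1.65.

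The posterior genes called lower in all-arch cells were hoxa9b, hoxa10b, hoxa11b, hoxa13b, hoxc6a, hoxc6b, hoxc8a, hoxd9a, hoxd10a and hoxd12a. Those of groups 9 to 13 among them belong to the HoxA and HoxD series that patterns fins and limbs, and the group 6 and 8 genes of HoxC are trunk genes. The largest difference among these was in hoxa13b, at 1.17, 2.10 and 0.992 TPM in all-arch cells and 42.0, 7.81 and 36.9 TPM in fli1a-only cells (-3.36 ± 0.69, adjusted p = 0.0191). Next came hoxd9a, at 0.393, 2.98 and 2.38 TPM against 20.6, 18.1 and 37.3 TPM (-3.24 ± 0.54, adjusted p = 0.00361). In both genes fli1a-only replicate 2 was the lowest of its group. The trunk gene hoxc6a was even across that group, at 11.2, 10.2 and 11.2 TPM, against 0.0979, 2.50 and 0.950 TPM in all-arch cells (-2.60 ± 0.45, adjusted p = 0.00443).

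Group 13, the last of the series and used in the tail and the distal fin, varied widely between fli1a-only libraries. Its summed level was 209, 10.95 and 137 TPM in fli1a-only replicates 1 to 3, and between 2.93 and 3.47 TPM in all-arch libraries. The gene hoxb13a read 74.5, 0 and 32.9 TPM there, and hoxa13a 51.9, 2.08 and 28.0 TPM. Neither passed the test against all-arch cells, where hoxb13a read 1.27, 0 and 0 TPM (-3.38 ± 1.48, adjusted p = 0.125) and hoxa13a at most 0.767 TPM (-3.59 ± 1.04, adjusted p = 0.0629, or 0.0295 with the replicate number as a block). The sum of the 4 pectoral fin mesenchyme markers moved with group 13 across the same libraries, at 247, 5.12 and 203 TPM. Most of it was the fin-fold gene and1, at 216, 3.57 and 163 TPM. The early fin-bud gene tbx5a, also on this list, did not move with group 13, at 0.511, 0.779 and 1.31 TPM. The neural tube list summed to 2710, 452 and 2149 TPM in fli1a-only libraries, against 109, 421 and 153 TPM in all-arch cells. The part of these other cells in the result was not tested.

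The counts of this comparison depended on single libraries and on the fit. Without fli1a-only replicate 2, the library richest in globin, 21 members were called lower, and hoxb13a (-5.27, adjusted p = 0.00376) and hoxa13a (-4.81, adjusted p = 0.00853) were among them. Leaving out fli1a-only replicate 1 or all-arch replicate 1 or 3 left 5 members lower, and all-arch replicate 2 left 6. Leaving out all-arch replicate 3 left 3 members higher. The shares of all genes called with a library left out are not given here, so these counts have no background. With the replicate number as a block, 12 members were higher and 21 lower, but so were 6353 and 879 of all genes. The block added hoxa3a, hoxb1a, hoxb1b, hoxb4a, hoxb5a, hoxc1a and hoxd3a to the higher genes (0.76 to 1.47, adjusted p from 0.000447 to 0.0391). To the lower genes it added hoxa9a (ENSDARG00000105013), hoxa13a, hoxb10a, hoxc9a, hoxc10a (ENSDARG00000070348), hoxc11a, hoxc11b, hoxc12b, hoxc13a, hoxd11a and hoxd13a (-0.75 to -3.59, adjusted p from 0.000713 to 0.0408). All 15 genes called without the block were also called when globin genes were left out or the libraries were rescaled, and 18 to 21 members were then lower.

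**Figure D3:**
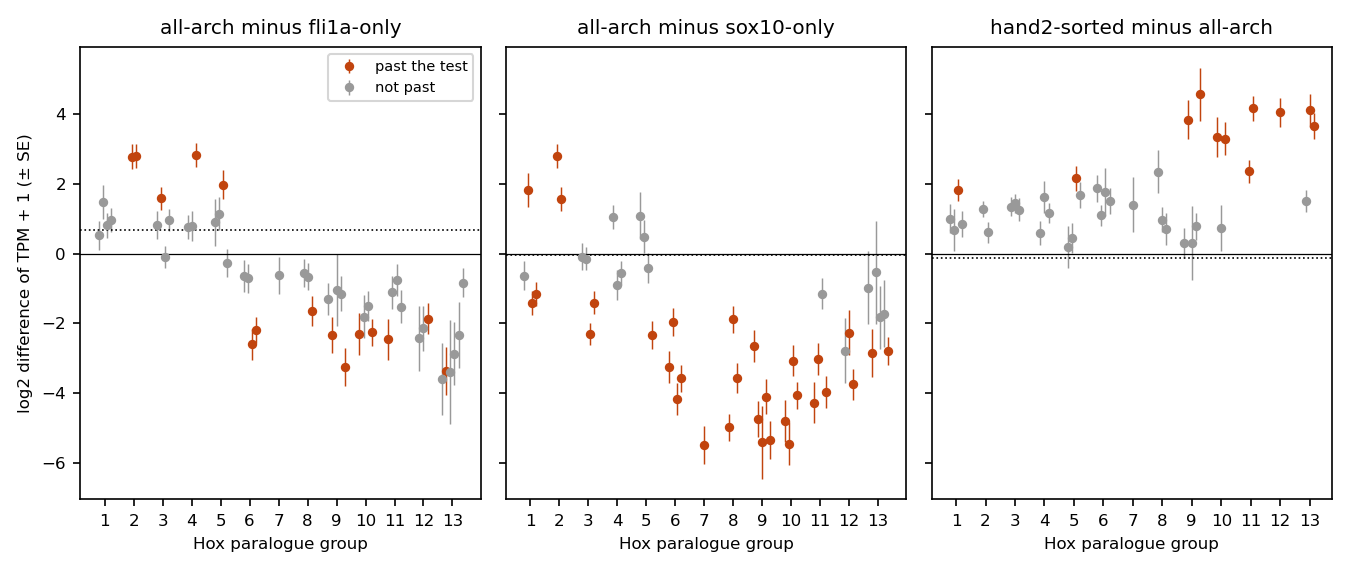
Difference on the log2(TPM + 1) scale with its standard error for every Hox member tested, by paralogue group, in 3 comparisons, with orange for members past the test, grey for the others and a dotted line at the median of all genes. Orange points above 0 lie in groups 1 to 5 in the first and second panels, and mainly in groups 9 to 13 in the third, which sets hand2-sorted against all-arch cells.

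Against sox10-only cells, the all-arch cells differed mainly in what they lacked. Of the 50 members, 3 were called higher in all-arch cells, all anterior, and 29 lower, of which 5 were anterior and 24 posterior. For background, 3.40% of the genes tested were called higher and 10.02% lower. The median over all 50 members was -2.11, beside -0.04 over all genes tested. Of the 47 members tested, 16 had a mean under 1 TPM in one of these groups. Among them hoxd13a, called lower, read at most 0.234 TPM in all-arch and 2.44 TPM in fli1a-only cells. It passed the filter only through the sox10-only libraries, at 9.57, 6.10 and 6.23 TPM, as did hoxc3a and hoxc11b. Their p-values thus belong to genes selected by the group in which they were high. The sox10-only libraries, labelled 20, 28 and 36 hpf, were fitted as replicates in every comparison with them. Errors and p-values there take in stage as well as the spread between libraries, and stage is mixed with population. With the replicate number as a block, hoxb4a was also called higher (1.04, adjusted p = 0.00633) and hoxc11b lower (-1.14, adjusted p = 0.00171), and hoxc12b was no longer called (-2.27, adjusted p = 0.0678).

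The genes called higher in all-arch cells were hoxa2b, hoxb2a and hoxb1a. The gene hoxa2b stood at 23.8, 34.0 and 22.2 TPM in sox10-only cells, far under every all-arch library (2.79 ± 0.35, adjusted p = 0.000124). The sox10-only levels of hoxb2a were 35.1, 51.8 and 39.7 TPM (1.57 ± 0.34, adjusted p = 0.00636). The gene hoxb1a, which specifies the fourth hindbrain segment, was low in both, at 2.92, 7.04 and 11.8 TPM in all-arch and 0.117, 1.42 and 2.39 TPM in sox10-only cells (1.82 ± 0.49, adjusted p = 0.0237). With the 36 hpf sox10-only library alone on that side only hoxa2b was called higher, and hoxb2a gave 1.64 (adjusted p = 0.153). The call of hoxb1a was lost without all-arch replicate 2 (1.76, adjusted p = 0.0686), all-arch replicate 3 (1.42, adjusted p = 0.0933) or sox10-only replicate 1 (1.37, adjusted p = 0.0707). The genes hoxd4a and hoxb5b did not pass the test, at 95.4, 114 and 143 TPM (-0.56 ± 0.35, adjusted p = 0.47) and 50.6, 49.5 and 58.4 TPM (-0.41 ± 0.42, adjusted p = 0.749) in sox10-only cells. Their values overlapped with those of all-arch cells.

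Anterior genes called lower in all-arch cells were hoxb1b, hoxc1a, hoxc3a, hoxc5a and hoxd3a. Of these hoxb1b, the early hindbrain gene of group 1, was the most abundant, at 11.7, 17.1 and 22.0 TPM in all-arch and 38.5, 45.6 and 52.8 TPM in sox10-only cells (-1.41 ± 0.35, adjusted p = 0.0144). Its call was lost without all-arch replicate 1 (-1.18, adjusted p = 0.0893), sox10-only replicate 2 (-1.40, adjusted p = 0.0623) or sox10-only replicate 3 (-1.30, adjusted p = 0.075), and with the 36 hpf library alone (-1.63, adjusted p = 0.146). The other 4 had sox10-only means between 7.16 and 17.5 TPM. Of these hoxc3a and hoxc5a were called in all 12 alternatives in which each was tested, hoxd3a in 10 of 12 and hoxc1a in 4 of 12. In the all-arch and fli1a-only libraries hoxc3a read at most 1.07 TPM, and it passed the filter only through the sox10-only libraries. The call of hoxd3a was lost without all-arch replicate 2 (-1.28, adjusted p = 0.0587) or sox10-only replicate 3 (-1.20, adjusted p = 0.0565), and that of hoxc1a without all-arch replicate 1 or 2 or any of the 3 sox10-only libraries (-0.92 to -1.24, adjusted p from 0.0693 to 0.234).

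Posterior genes of the trunk and spinal cord in HoxB were among those with the largest differences. In sox10-only cells hoxb8a stood at 274, 239.9 and 270.0 TPM, against 4.83, 11.05 and 7.34 TPM in all-arch cells (-4.97 ± 0.39, adjusted p = 1.65e-05). Its neighbour hoxb7a stood at 89.7, 138 and 133 TPM against 0.466, 5.29 and 1.07 TPM (-5.48 ± 0.54, adjusted p = 3.33e-05). In both genes every sox10-only library stood far above every all-arch library. The gene hoxb10a stood at 75.6, 39.2 and 131 TPM against 0.783, 1.32 and 0.211 TPM (-5.44 ± 0.62, adjusted p = 0.000113). By contrast hoxb9a read 49.4, 248 and 427 TPM at 20, 28 and 36 hpf, against 0.400, 7.60 and 4.90 TPM in all-arch cells (-5.40 ± 1.03, adjusted p = 0.00799). Each stage was 1 library with its own replicate number, so stage and replicate number cannot be told apart, and this order has no test. At 36 hpf hoxb9a was lowest in replicate 1 of the all-arch libraries too. The same held for edn1 mutant (0.850 and 12.8 TPM) and hand2-sorted libraries (2.38 and 6.62 TPM), but not for fli1a-only libraries (4.02, 3.70 and 25.0 TPM).

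The 28 hpf library held the lowest levels of HoxA and HoxD group 9 to 11 genes in sox10-only cells. There hoxd9a read 161, 48.8 and 153 TPM (-5.34 ± 0.54 for all-arch against sox10-only, adjusted p = 3.46e-05), hoxa9b 85.2, 57.9 and 128 TPM (-4.74 ± 0.51, adjusted p = 4.45e-05) and hoxa10b 96.4, 22.8 and 86.2 TPM (-4.79 ± 0.61, adjusted p = 0.000223). HoxA and HoxD members of groups 9 to 13 summed to 541, 224 and 578 TPM over the 3 stages, and HoxB and HoxC members to 206, 339 and 681 TPM. The HoxB and HoxC sum was thus highest at 36 hpf and lowest at 20 hpf, while the HoxA and HoxD sum was lowest at 28 hpf. At 28 and 36 hpf the largest part of the HoxB and HoxC sum was hoxb9a, with 248 and 427 TPM, against 49.4 TPM at 20 hpf. By contrast hoxb10a (75.6, 39.2 and 131 TPM) and hoxc9a (35.5, 29.0 and 50.3 TPM) were lowest at 28 hpf. Stage and replicate number cannot be told apart here. In fli1a-only replicates 1 to 3, all at 36 hpf, the HoxA and HoxD sum was 183, 55.5 and 207 TPM. In all-arch replicates it was 6.35, 14.8 and 16.0 TPM. In sox10-only cells tail-level group 13 members stayed lower than groups 8 and 9, with a sum of 51.5, 15.6 and 47.4 TPM.

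Markers of other cells were high in the same sox10-only libraries. The neural tube list summed to 3797, 5361 and 3699 TPM, and 8 of its 9 members were called lower in all-arch cells. The trunk and autonomic crest list summed to 1574, 2339 and 2372 TPM against 44.8, 174 and 62.0 TPM, and all 6 members tested were called lower, among them the reporter gene sox10 itself. The tailbud list summed to at most 7.54 TPM in a sox10-only library. The part of these cells in the Hox differences was not tested.

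**Figure D4:**
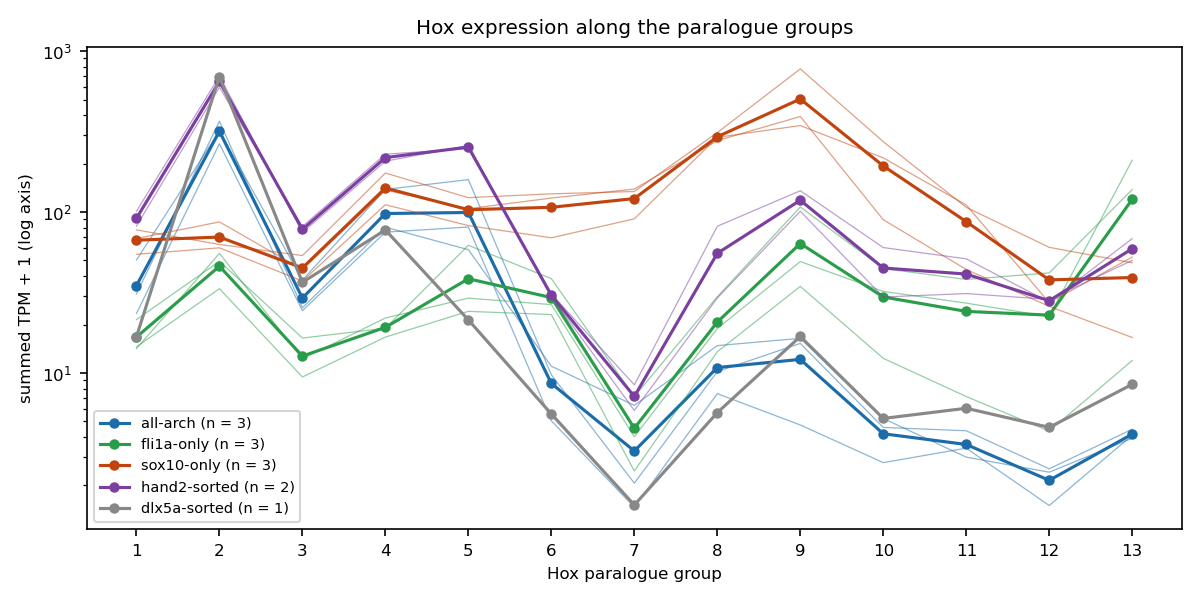
Summed TPM + 1 (log axis) of each Hox paralogue group in 5 populations, with thin lines for libraries and thick lines for group means. All-arch and dlx5a-sorted cells peak at group 2 and stay under about 20 from group 7 on, sox10-only cells rise to groups 8 and 9, and the fli1a-only mean is highest at group 13, with fli1a-only replicate 2 highest at group 9.

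Between the single-positive populations, 32 of 50 Hox members were called lower in fli1a-only than in sox10-only cells, a count that depended on how the globin-rich fli1a-only libraries were scaled. Of 50 members, 0 were called higher in fli1a-only cells (1 at an unadjusted p under 0.05 in limma) and 32 lower, 10 of them anterior and 22 posterior. Among the 32, hoxc3a and hoxd13a passed the filter only through the sox10-only libraries. Over all genes tested 4.06% were called higher and 24.4% lower at the adjusted threshold, and the median difference was -0.78. Anterior genes called lower included hoxd4a (-3.38 ± 0.35, adjusted p = 3.06e-05), hoxb5b (-2.38 ± 0.42, adjusted p = 0.0015) and hoxb1b (-2.21 ± 0.35, adjusted p = 0.000626), while the values of hoxa2b overlapped. The 8 posterior members tested and not called lower were all of groups 11 to 13. Without fli1a-only replicate 2, hoxa13a, hoxb13a, hoxc13a and hoxc13b were called higher in fli1a-only cells, by 3.84, 4.73, 2.28 and 1.84 on the log2 scale. Without sox10-only replicate 3, 20 members were called lower. With globin genes left out, or under either rescaling, 19 of the 32 remained lower. The gene hoxa13a was then called higher in fli1a-only cells under each of the 3 (3.23 to 3.27, adjusted p from 0.0328 to 0.0398), and hoxa2b and hoxb4a under both rescalings (0.87 to 0.95, adjusted p from 0.0208 to 0.0439). With the replicate number as a block, hoxa1a (-1.15, adjusted p = 0.00485) and hoxa3a (-0.91, adjusted p = 0.0203) were also lower.

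In hand2-sorted cells, a posterior set of HoxA and HoxD genes appeared beside the anterior arch set. Some posterior HoxB and HoxC genes also read higher, without being called. The titles of these libraries do not name fli1a. Within the arches, the gene hand2 marks the ventral part. It read 34428 and 25346.5 TPM in these libraries against 729, 639 and 856 TPM in all-arch cells. Of the 50 members, 11 were called higher than in all-arch cells and 0 lower (0 also at an unadjusted p under 0.05 in limma, where 26 were higher). By comparison 0.295% of the 13206 genes tested were called higher and 1.26% lower at the adjusted threshold. The share of all genes at an unadjusted p under 0.05 is not given here, so the count of 26 has no background. The 11 were hoxb1b and hoxb5b among anterior genes, and hoxa9b, hoxa10b, hoxa11b, hoxa13b, hoxd9a, hoxd10a, hoxd11a, hoxd12a and hoxd13a. The median over all 50 members was 1.04, beside -0.12 over all genes tested. Of the 38 members tested, 7 had a mean under 1 TPM in one of these groups.

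The HoxD genes went from near absence to moderate levels. The gene hoxd11a stood at 37.7 and 19.3 TPM in hand2-sorted cells and at 0.795, 0.470 and 0.482 TPM in all-arch cells (4.15 ± 0.36, n = 2 and 3, adjusted p = 0.00563). Levels of hoxd12a were 26.4 and 25.5 TPM against 0.216, 0.971 and 0.852 TPM (4.03 ± 0.42, adjusted p = 0.01), and those of hoxd13a 19.1 and 9.86 TPM against at most 0.234 TPM (3.65 ± 0.38, adjusted p = 0.0102). The nearer gene hoxd9a was the highest of them, at 75.0 and 50.4 TPM against 0.393, 2.98 and 2.38 TPM (4.56 ± 0.76, adjusted p = 0.0443). In each of these 4 genes every hand2-sorted library was above every all-arch library. Among them hoxd13a passed the filter of a mean of 1 TPM only through the hand2-sorted libraries. Its p-value thus belongs to a gene selected by the group in which it was called. Of the cluster, hoxd10a also rose, at 30.3 and 9.58 TPM against at most 1.04 TPM (3.29 ± 0.48, adjusted p = 0.0271), and hoxd4a, already high, did not pass the test (182 and 169.6 TPM, 1.16 ± 0.29, adjusted p = 0.153).

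The HoxA genes of the second copy of that cluster did the same. The gene hoxa13b stood at 45.3 and 34.4 TPM against 1.17, 2.10 and 0.992 TPM (4.09 ± 0.46, adjusted p = 0.0126), and hoxa9b at 51.8 and 39.9 TPM against 0.598, 3.68 and 3.63 TPM (3.83 ± 0.55, adjusted p = 0.0261). Differences for hoxa10b and hoxa11b were 3.33 ± 0.56 (adjusted p = 0.0443) and 2.35 ± 0.32 (adjusted p = 0.0221). HoxA and HoxD members of groups 9 to 13 together summed to 329 and 218 TPM in hand2-sorted cells and 6.35, 14.8 and 16.0 TPM in all-arch cells. HoxB and HoxC members of the same groups summed to 8.67 and 17.6 TPM against 5.19, 11.2 and 10.3 TPM. Of these members only hoxb9a, hoxb10a and hoxc9a reached the filter's mean of 1 TPM and were tested, and 0 were called. The other HoxB and HoxC rows of these groups were too low to be tested. These sums are a description, without a test. In sox10-only cells both sets were high, so there the split between clusters was not seen.

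**Figure D5:**
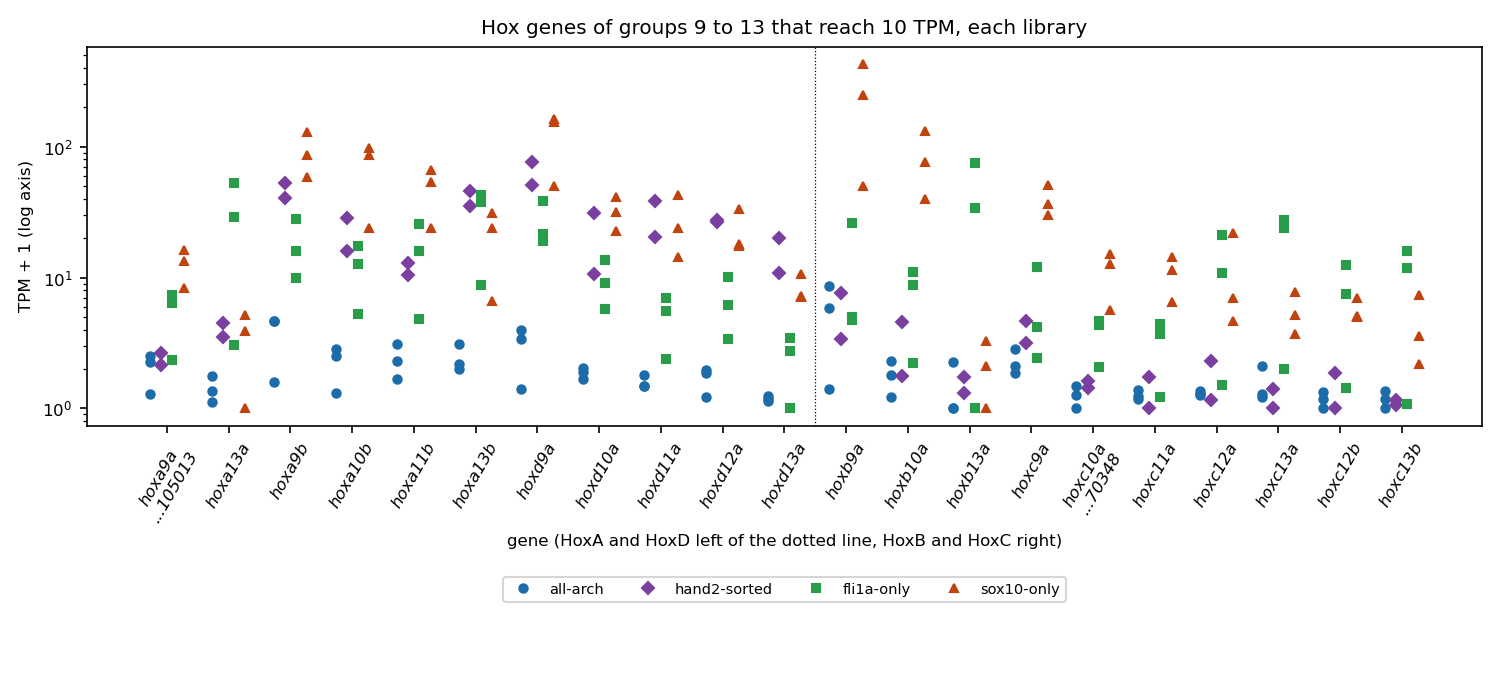
TPM + 1 (log axis) in each library of 4 populations for the 21 Hox rows of groups 9 to 13 that reach 10 TPM in some library, with HoxA and HoxD left of the dotted line. Purple diamonds (hand2-sorted) stand well above blue circles (all-arch) for hoxa9b to hoxd13a, and close to them right of the line.

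Among anterior genes, hoxb5b rose to 174 and 183 TPM from 37.1, 26.1 and 63.0 TPM (2.15 ± 0.36, adjusted p = 0.0444), and hoxb1b, which overlaps it, to 53.3 and 67.5 TPM (1.81 ± 0.32, adjusted p = 0.0474). The arch gene hoxa2b stood at 428 and 479 TPM, above every all-arch library, but did not pass (1.27 ± 0.23, adjusted p = 0.057), nor did hoxc4a (1.61 ± 0.45, adjusted p = 0.195), and hoxb2a gave 0.60 ± 0.30 (adjusted p = 0.562). The trunk gene hoxb8a differed between the libraries of the group, at 75.4 and 22.6 TPM (2.34 ± 0.62, adjusted p = 0.172). With the replicate number as a block, 17 members were called higher, hoxa2b (1.30, adjusted p = 0.0352), hoxd4a (1.40, adjusted p = 0.0276) and hoxc4a (2.03, adjusted p = 0.0205) among them. The block also added hoxa3a, hoxa13a, hoxb3a, hoxc5a and hoxd3a (1.38 to 1.70, adjusted p from 0.0224 to 0.0431), while hoxa10b (3.55, adjusted p = 0.0518) and hoxd10a (3.35, adjusted p = 0.0533) fell short. Which all-arch library belongs with hand2-sorted replicate 2 is uncertain, so the calls of the block are uncertain too. The share of all genes called with this block is not given here, so the count of 17 has no background.

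These calls rested on few libraries. Leaving out hand2 replicate 1 left 1 member called, hand2 replicate 2 left 3, and all-arch replicates 1, 2 and 3 left 3, 4 and 3. The gene hoxd11a was called in all 10 alternatives in which it was tested, and hoxd12a in 8 of 10. Other markers differed with the same sort. The autonomic neuron regulator phox2bb stood at 333 and 547 TPM against 16.6, 46.2 and 18.9 TPM, and it and ret were the 2 of 6 tested members of the trunk and autonomic crest list called higher, which summed to 759 and 1007 TPM against 44.8, 174 and 62.0 TPM. The fin mesenchyme list summed to 50.8 and 20.3 TPM against 2.59, 2.51 and 17.5 TPM, with 0 of its 2 tested members called and tbx5a at 1.16 and 4.49 TPM. The epidermis list summed to 1889 and 1768 TPM against 147, 90.9 and 1029 TPM, and the ear list to 55.7 and 53.5 TPM against 16.5, 20.6 and 21.4 TPM, with 1 of 4 tested members of each called higher. The part of such cells in the Hox result was not tested.

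The single dlx5a-sorted library was dominated by group 2 among its Hox genes. The gene dlx5a marks the ventral and intermediate arch, and in the test this library was assumed to vary like the other groups. Of 50 members, 38 were tested and 0 were called in either direction (limma, with 3 higher and 5 lower at an unadjusted p under 0.05), against 0.0757% of all genes called higher and 0.318% lower. Both shares of all genes are at the adjusted threshold, and none is given here for the unadjusted one. Group 2 held 82.4% of the anterior TPM of the dlx5a-sorted library, more than in any other library. The level of hoxa2b was 483 TPM (1.36 ± 0.30, adjusted p = 0.127) and that of hoxb2a 209 TPM (0.73 ± 0.38, adjusted p = 0.37), both above every all-arch library. Under every all-arch library stood hoxb5a, at 4.05 TPM against 31.8, 21.0 and 61.6 TPM (-2.82 ± 0.55, adjusted p = 0.0988), hoxb1b, at 3.77 TPM (-1.87 ± 0.40, adjusted p = 0.121), hoxb5b, at 11.8 TPM (-1.66 ± 0.46, adjusted p = 0.183), and hoxa5a, at 2.60 TPM (-1.94 ± 0.76, adjusted p = 0.274). The gene hoxd4a, at 70.9 TPM, lay inside the all-arch range. Posterior HoxA and HoxD members of groups 9 to 13 summed to 31.8 TPM, above the 6.35, 14.8 and 16.0 TPM of the all-arch libraries. This lay inside the range of the other arch libraries sorted with fli1a and sox10. Their sums ran from 10.8 TPM in edn1 mutant replicate 1 to 37.1 TPM in the jag1b+/+ library. The trunk and autonomic crest list summed to 145 TPM, inside its all-arch range, while the ear list, at 143 TPM, and the epidermis list, at 1515 TPM, lay above every all-arch library, with 1 of 4 tested members of each called higher. The part of such cells in the Hox levels was not tested. The median difference of all genes tested was -0.38, and this comparison shares the all-arch libraries with those of the hand2-sorted and edn1 mutant cells.

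In edn1 mutant arches no Hox gene passed the test against all-arch cells. Of the 38 members tested, 0 were called in either direction (limma, with 1 higher and 0 lower at an unadjusted p under 0.05), while 0% of all genes were called higher and 0.00757% lower. These shares are at the adjusted threshold, and none is given here for the unadjusted one. Levels of hoxa2b were 239.7 and 263 TPM against 166, 204 and 195 TPM (0.42 ± 0.23, adjusted p = 1), and those of hoxb2a 93.6 and 125 TPM (-0.21 ± 0.30, adjusted p = 1). The gene hoxb5a was the one with an unadjusted p under 0.05, at 72.8 and 71.0 TPM (1.03 ± 0.43, adjusted p = 1), and hoxb5b stood at 66.1 and 72.1 TPM (0.79 ± 0.36, adjusted p = 1). The values of hoxa2b, hoxb5a, hoxb5b and hoxd4a (122 and 123 TPM, 0.64 ± 0.29, adjusted p = 1) lay above all 3 all-arch libraries. For these genes in that order, the jag1b+/+ control library read 181, 72.1, 65.2 and 101 TPM. The heat-shock Gal4 control library read 129, 31.3, 53.7 and 123 TPM. With this design a p over the threshold does not show that levels were equal.

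In the jag1b mutant library no Hox gene was past the fold set for single libraries. Of 13 members with at least 10 TPM in the higher of the libraries, 0 reached a difference of 1 on the log2 scale, against 0.192% of all such genes higher and 0.700% lower, and there is no replicate check. Their differences ran from -0.92 for hoxa1a (8.72 against 17.4 TPM) to 0.20 for hoxb8a (24.3 against 21.0 TPM). The arch gene hoxa2b read 192 TPM in the mutant and 181 TPM in the control, and hoxb2a 105 against 121 TPM.

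With heat-shock expression of Edn1 or NICD the Hox genes past the fold were hoxa1a and genes of HoxB groups 5 to 9, and the group 2 genes were not among them. Each condition was 1 library, and both share the same control library. In the Edn1 library 0 of 14 eligible members were at least 1 higher on the log2 scale (2.42% of all such genes) and 3 were at least 1 lower (1.29%). These were hoxb5b at 24.6 against 53.7 TPM (-1.10), hoxb5a at 14.8 against 31.3 TPM (-1.03) and hoxb8a at 8.02 against 22.3 TPM (-1.37), and hoxb9a was just short of the fold, at 6.54 against 14.1 TPM. In contrast hoxa2b read 124 against 129 TPM and hoxb2a 123 against 106 TPM. The median of all such genes was 0.22. For hoxb8a and hoxb9a the Edn1 values lay inside the all-arch range (4.83 to 11.05 and 0.400 to 7.60 TPM), and the Gal4 values above it. For hoxb5b and hoxb5a the Edn1 values lay under every all-arch library (at least 26.1 and 21.0 TPM), and the Gal4 values inside that range. The blood list summed to 452 against 3701 TPM with Gal4 alone, and the trunk and autonomic crest list to 111 against 156 TPM. The part of such cells was not tested.

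In the NICD library 1 of 15 eligible members was at least 1 higher (5.04% of all such genes) and 1 was at least 1 lower (2.09%). The higher one was hoxb9a, at 30.1 against 14.1 TPM (1.05), with hoxb8a just short, at 45.4 against 22.3 TPM, and hoxb7a at 13.8 against 7.73 TPM. The lower one was hoxa1a, at 3.76 against 12.4 TPM (-1.49). In all-arch libraries hoxa1a read 4.01, 3.13 and 9.04 TPM, so the NICD value lay inside their range and the Gal4 value above it. For hoxb9a both values lay above every all-arch library. The neural tube list in the NICD library summed to 1419 TPM against 366 TPM, but its members were split. Higher were fabp7a (966 against 164 TPM), sox2, sox3 and olig2. Lower were stmn1b (27.8 against 54.1 TPM), elavl3, elavl4, neurod1 and isl1. The reporter gene sox10 read 304 against 64.5 TPM. The part of other cells in the hoxb9a value was not tested. The levels of hoxa2b (135 TPM), hoxb2a (143 TPM) and hoxd4a (152 against 123 TPM) were less than 1 from the control on the log2 scale, beside a median of 0.15.

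Genes that work with Hox proteins or set their expression were read from lists chosen by function, with earlier results of these data known. For background, 4.16% of all genes tested were called higher and 2.89% lower in all-arch than in fli1a-only cells. The median difference of all genes there was 0.68. For all-arch against sox10-only cells the shares were 3.40% and 10.02%, and the median was -0.04. The TALE homeodomain proteins of the Pbx, Meis and Pknox families bind DNA together with Hox proteins. Of 14 listed cofactors 12 were tested, and 7 were called higher in all-arch than in fli1a-only cells and 0 lower. The largest was meis2a, at 11.8, 18.7 and 14.4 TPM against 2.38, 2.15 and 3.18 TPM (2.15 ± 0.33, adjusted p = 0.00202), followed by meis3 (2.03 ± 0.45, adjusted p = 0.0196) and meis1a (1.85 ± 0.39, adjusted p = 0.0159). Against sox10-only cells 4 of 12 were called higher, all Meis genes, with meis1a at 10.1, 24.3 and 17.5 TPM against 1.002, 1.81 and 3.17 TPM (2.60 ± 0.39, adjusted p = 0.000498). In hand2-sorted, dlx5a-sorted and edn1 mutant cells 0 of 12 were called against all-arch cells in limma. The calls of meis2a against fli1a-only and meis1a against sox10-only cells held in all 12 alternatives in which each was tested, and those of meis3 and meis2b against fli1a-only cells in 9 and 8 of 13. The calls of meis1a (7 of 12), pbx2 (5 of 13), pbx3b (5 of 12) and meis1b (4 of 13) against fli1a-only cells held in fewer, and against sox10-only cells meis2a held in 11 of 12, meis2b in 12 of 13 and meis3 in 7 of 13.

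Retinoic acid is the main signal that switches on anterior Hox genes, and Cdx factors act on posterior ones. Of 13 such genes found 9 were tested, and the shares over all genes given above for each comparison are their background. The retinoic acid-degrading enzyme gene cyp26c1 was lower in all-arch than in fli1a-only cells, at 4.28, 13.8 and 10.03 TPM against 102, 89.3 and 140.0 TPM (-3.52 ± 0.43, adjusted p = 0.000338), while the carrier gene crabp2b and the receptor gene rarga were higher (1.79 ± 0.34 and 1.52 ± 0.37, adjusted p = 0.00764 and 0.0315). Against sox10-only cells 4 were higher, led by the enzyme gene cyp26b1 (2.28 ± 0.52, adjusted p = 0.00936) and rarga (1.83 ± 0.37, adjusted p = 0.00423). The carrier gene crabp2a was the one member lower in hand2-sorted cells, at 15.3 and 10.5 TPM against 64.9, 52.4 and 65.9 TPM (-2.17 ± 0.27, adjusted p = 0.0164), a call that held in 5 of 11 alternatives. It read 6.43 TPM in the single dlx5a-sorted library, where the error and p come from the spread of the other groups (-3.05 ± 0.34, adjusted p = 0.035, called in 2 of 8 alternatives). Against fli1a-only cells the calls of cyp26c1, crabp2b and rarga held in 13 of 13, 12 of 13 and 5 of 12 alternatives. The posterior regulators cdx4 and cdx1b were at most 0.506 TPM in every library.

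Of 8 hindbrain regulators of Hox genes 6 were tested. Of these irx7 and gbx2 were called higher in all-arch than in fli1a-only cells (3.06 ± 0.62 and 3.00 ± 0.38, adjusted p = 0.016 and 0.000524), beside 4.16% of all genes. Against sox10-only cells irx7 was higher (2.96 ± 0.62, adjusted p = 0.00705) and the hindbrain segment gene egr2b lower, at 0.298, 1.19 and 0.857 TPM against 8.38, 12.8 and 7.01 TPM (-2.54 ± 0.38, adjusted p = 0.000493). Chromatin regulators of the Hox clusters, of which 10 were tested, gave 1 call against fli1a-only cells, with the Polycomb gene eed higher in all-arch than in fli1a-only cells (1.47 ± 0.39, adjusted p = 0.0451, called in 6 of 13 alternatives) and 0 called against sox10-only cells. Of the 3 even-skipped genes beside the clusters, 2 were tested and 0 were called in the comparisons of the 3 populations.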

How the data were processed

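RNA sequencing was done on 19 libraries of sorted zebrafish cells. The authors deposited TPM per gene. The submitters' processing notes name TopHat2, Partek and GRCz10, with no version or setting, and the sources used here do not tie libraries to sequencers. Every deposited TPM column added up to about 93168.2 and was multiplied by 10.7333 to reach 1000000, which leaves ratios as they were. TPM keeps no depth, so counting intervals cannot be given.

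The quantity tested was log2 of TPM plus a pseudocount of 1, which dampens changes of low genes. Genes with a mean of at least 1 TPM entered limma (version 3.58.1, R 4.3.3, with trend and robust settings, 2-sided), and p-values were adjusted by Benjamini-Hochberg over all of them at a threshold of 0.05. The wild-type populations with 3 libraries each made up one fit. The other took in the all-arch, hand2-sorted, dlx5a-sorted and edn1-/- libraries. The code was tested on simulated data. Where each side was 1 library, no test was made, and genes differing by 1 or more (log2) with 10 TPM or more in the higher library were counted. Members, lists and the naming rule (values for members with a group mean of 10 TPM, and called genes) were chosen with earlier results of these data known.

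Replicate numbers in the titles were taken as possible pairs. Same-numbered libraries deviated together from the means of their groups, with correlations across genes of 0.316 to 0.739. Among the populations with 3 libraries each, differently numbered libraries gave at most 0.109. However, hand2-sorted and edn1 mutant replicate 2 also correlated with all-arch replicate 3 (0.378 and 0.352), beside 0.335 and 0.45 with all-arch replicate 2. The pairing of hand2-sorted replicate 2 is therefore uncertain, and so are the block's calls there. Hox calls that a block on the replicate numbers changed are given with each comparison. Alternatives were another pseudocount, values as deposited, no filter, 2 rescalings, globin genes left out, the block, and each library left out.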

Additional observations from a re-analysis of the deposited data

How the results depend on the processing

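No Hox gene called in a comparison changed direction under any alternative run. The counts under alternatives below are given without the shares of all genes called under each, so they have no background. For all-arch against fli1a-only cells, 12 genes were higher with the replicate block and 3 to 7 with 1 library left out, where 5 were reported. The 10 lower became 5 on TPM as deposited, 4 with no filter, 21 with median-of-ratios rescaling, 19 with quantile normalization, 21 with the block, 18 with globin genes left out and 5 to 21 with 1 library left out. For all-arch against sox10-only cells, the 3 higher became 1 with the 36 hpf library alone and the 29 lower became 13 on TPM as deposited. For fli1a-only against sox10-only cells, the 0 higher became 3, 3 and 1 with median-of-ratios, quantile normalization and globin genes left out, and 0 to 4 with 1 library left out. The 32 lower became 17 as deposited, 19 under each of those 3, and 20 to 34 with 1 library left out. The 11 higher in hand2-sorted cells became 7 with a pseudocount of 0.1, 5 as deposited, 4 with no filter, 17 and 18 with the rescalings, 17 with the block and 1 to 4 with 1 library left out. In the Edn1 library the 3 lower became 7 with a minimum of 5 TPM and 0 as deposited, and in the NICD library the 1 higher became 2 with a pseudocount of 0.1 and 0 as deposited, as did the 1 lower (0). The cause was not tested, except that values as deposited are smaller, so that fewer genes reach the minimum level. Of the 15, 32, 32 and 11 members called in the 4 comparisons, 11, 16, 17 and 5 were still tested on them and 9, 15, 17 and 5 still called. Anterior sums moved with median-of-ratios rescaling to 190.2 TPM in fli1a-only (213 with globin genes left out), 324 in sox10-only and 637 in edn1 mutant cells. The Hox calls that the replicate block changed are named in the report, and it changed no other Hox call. The dlx5a library carries no number, so it had no block. Of 504 values for called genes of the function lists under alternatives, 367 stayed past the threshold and 0 changed direction. Depth is unknown, and 2 or 3 libraries a group limit every test.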

Other observations

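The ratio of the second-arch genes hoxa2b and hoxb2a differed between sorts. It was 1.67, 1.27 and 1.59 in all-arch libraries, 2.57 and 2.19 in hand2-sorted libraries, 2.31 in the dlx5a-sorted library, 2.56 and 2.11 in edn1 mutants, and 0.678, 0.656 and 0.561 in sox10-only libraries. The heat-shock libraries read 1.21 with Gal4 alone, 1.01 with Edn1 and 0.947 with NICD. The ratio of the duplicates hoxb5b and hoxb5a was 1.17, 1.25 and 1.02 in all-arch libraries, 3.28 and 4.33 in hand2-sorted and 2.58, 2.33 and 1.66 in sox10-only libraries. It was 2.92 in the dlx5a-sorted library and 0.899, 0.477 and 0.534 in fli1a-only libraries. The heat-shock libraries gave 1.71 with Gal4 alone, 1.66 with Edn1 and 1.94 with NICD. In edn1 mutants it was 0.909 and 1.01, in the jag1b+/+ library 0.904 and in the jag1b mutant 0.827. These ratios were chosen after the values were seen and were not tested. All-arch replicate 2 held more blood (6509 TPM) and pigment (824 TPM) marker signal than replicates 1 and 3, and the highest hoxb7a, hoxb8a and hoxb9a values of the 3.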
